A study of Mus musculus with 24 samples.

Results

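Skin of mouse embryos at E18.5, shortly before birth, that lacked both copies of the desmoglein 1 gene cluster (KO, Dsg1-/-) was compared with skin of heterozygous embryos that kept 1 copy (HET, Dsg1+/-), so that the comparison shows which transcripts differed between skin with a single remaining copy and skin with none. The 16 libraries labelled KO or HET, 8 of each, were taken from 24 in the series, and the other 8 came from wildtype skin (WT, Dsg1+/+). Libraries that shared a title number and a genotype were summed, which gave 5 columns for each genotype, numbered here in the order of their title numbers. Columns 1 to 3 of KO and HET combined 2 libraries each, 1 from each of 2 title series, and columns 4 and 5 were single libraries of the second series. In the mutant line the tandem genes Dsg1a, Dsg1b and Dsg1c had been removed together from chromosome 18 by CRISPR/Cas9 in C57BL/6J zygotes, in every tissue and from conception, so the HET embryos carried the same deletion on 1 chromosome. Polyadenylated RNA of whole dorsal skin was sequenced, and the dermis, its vessels and its muscle are therefore in every column beside the epidermis.

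Desmoglein 1 is a desmosomal cadherin of the upper epidermis, where desmosomes tie keratin filaments of neighbouring cells together. Desmoglein 3 is its relative of the lower layers, and the plaque proteins plakoglobin, plakophilin and desmoplakin link both to keratin. In the outermost living layers keratinocytes build the cornified envelope from loricrin, involucrin, small proline-rich (SPRR) and late cornified envelope (LCE) proteins, and Krt6 and Krt16 are keratins known for their appearance in injured or inflamed skin.

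Levels are given as CPM, read counts scaled to the size of the library after trimmed mean of M-values (TMM) normalisation. A gene was called where edgeR's quasi-likelihood test gave a Benjamini-Hochberg adjusted p of 0.1 or below over the 17094 genes tested and the fold change was 2-fold or more, that is, a log2 fold change of 1 or more in size. The 10 KO and HET columns held between 15279289 (HET 4) and 33595618 (KO 1) counts. The libraries are the only replicates, and where their numbers do not mark separate embryos the p-values measure technical spread. The 5 keratinocyte markers (Krt5, Krt14, Krt1, Krt10 and Trp63) summed to between 52626 and 70256 CPM in HET and between 65701 and 92505 CPM in KO, and all 5 had a 95% interval of the log2 fold change that lay within 2-fold. KO 4 stood apart: its mitochondrial transcripts made up 3.76% of counts against 1.53 to 1.84% in the other KO columns, its adipocyte markers summed to 5936 CPM against 778 to 1837 CPM, and keratins of simple epithelia were high in it alone. HET 3 was the HET column with the most mitochondrial counts (3.47%) and the highest adipocyte sum (4384 CPM against 795 to 1459 CPM). The 2 libraries of 1 WT column disagreed in their Y-linked transcripts, and results are also given with them kept apart.

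The targeted genes were checked first. Dsg1a, Dsg1b and Dsg1c share reads and were summed. The sum was 371, 454, 376, 492 and 414 CPM in HET 1 to 5 and 0.902, 0.811, 0.638, 0.103 and 0.286 CPM in KO 1 to 5, where it rested on 30, 22, 15, 2 and 6 counts. The KO mean was 0.548 ± 0.343 CPM (SD, n = 5), 0.130% of the HET mean of 422 ± 51.5 CPM (SD, n = 5). All HET columns lay above all KO columns (two-sided exact permutation test, p = 0.00794, the smallest that 252 arrangements allow). The HET mean was 52.3% of the WT mean of 806 ± 112 CPM (SD, n = 5). Dsg1a carried most of the counts, 6824 to 10982 in a HET column, against 733 to 1229 for Dsg1b and 2 to 7 for Dsg1c. In the fit across all genes the log2 fold change was -9.49 ± 0.33 (SE) for Dsg1a, with an edgeR adjusted p of 4.34e-11, and -9.28 ± 0.27 (SE) for Dsg1b, with an adjusted p of 1.55e-12.

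**Figure D1:**
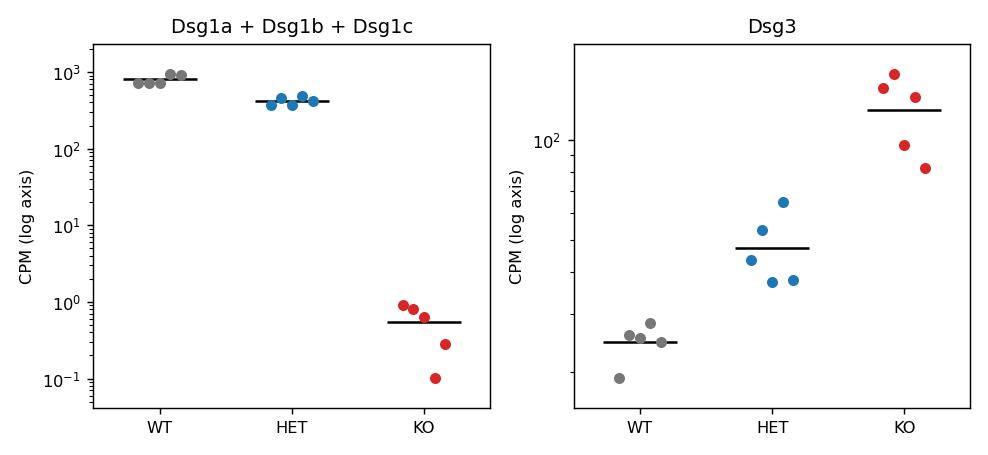
CPM on a log axis in each of 5 columns of WT, HET and KO skin (points) with the mean of the 5 (line), for the summed Dsg1 genes and for Dsg3. The Dsg1 sum fell from a HET mean of 422 CPM to a KO mean of 0.548 CPM, while Dsg3 rose from 47.4 to 123 CPM without overlap.

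Beside the deleted genes few transcripts passed the threshold between KO and HET. Of 17094 genes tested, 14 were called higher in KO (0.0819%) and 17 lower (0.0995%), Dsg1a and Dsg1b among them, 31 in all (0.181%). The raised genes were Sprr2b, Rptn, Krt16, Sprr1b, Slpi, Skint11, Teddm3, Dsg3, Cyp3a13, Plet1, Gjb2, Fosl1, Pla2g2d and Chit1. The lowered ones were Dsg1a, Dsg1b, Sgol1ut, Tmem56, RP23-78F6.3, RP23-31C9.5, RP23-136M7.2, Gm94, Nfe2, Plcxd2, Acsl6, Ctla4, Mcpt8, RP23-278C10.3, Bicd1, Nt5c3 and Miat. Without the fold limit 57 genes passed (0.333%), 25 higher and 32 lower, and 2742 had an unadjusted p under 0.05, 1396 higher and 1346 lower. In the same fit no gene was called between HET and WT, none reached an adjusted p of 0.1 there, and 270 had an unadjusted p under 0.05. The targeted genes missed both limits there as well. HET minus WT was -0.94 for Dsg1a (edgeR adjusted p = 0.9998) and -0.92 for Dsg1b (0.135). The absence of calls therefore does not show that HET equals WT.

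The length of this list depended on the fit. With the WT columns left out, so that the spread was estimated from KO and HET alone, 3 genes were called (Dsg1a, Dsg1b and Sprr1b), and the first title series alone gave Dsg1a, Dsg1b and Dsg3. The second series alone gave 29 genes, and DESeq2 gave 126 (42 higher and 84 lower). In every one of the alternatives run, each of the 31 genes that was tested kept its direction. Dsg1a and Dsg1b were called in all 34 alternatives that could give the gene a value of its own, Dsg3 in 33, Sprr1b and Teddm3 in 32, Gjb2 in 31 and Tmem56 in 30. At the other end Chit1 was called in 11 of 34 and Fosl1 in 13 of 33. Leaving out 1 column gave between 10 genes (without KO 1 or HET 1) and 113 (without KO 5), and without KO 4, the KO column that stood apart, 11 were called, 9 of them among the 31. With KO 4 and HET 3 both left out, an alternative chosen after the data were seen, the called genes were Dsg1a, Dsg1b, Dsg3 and Teddm3.

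**Figure D2:**
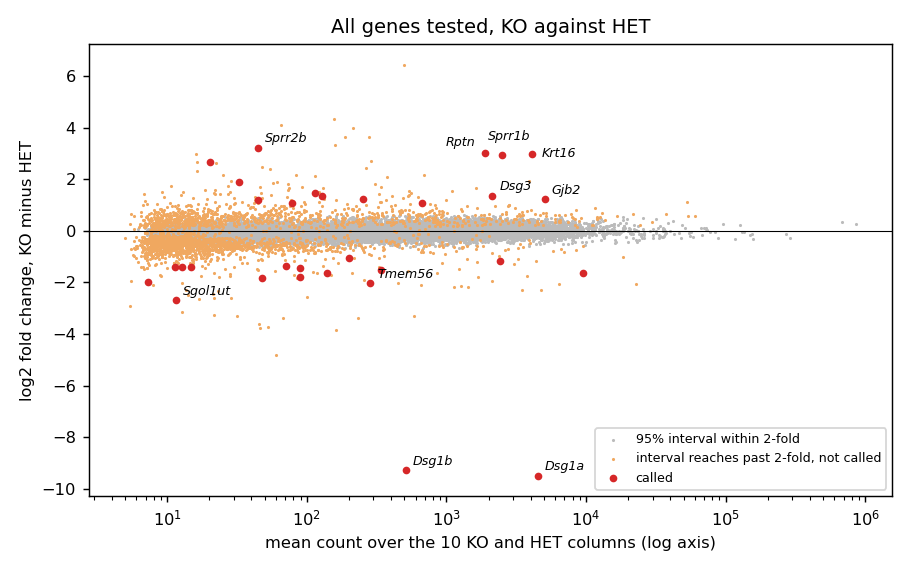
Log2 fold change of KO minus HET against the mean count over the 10 KO and HET columns (log axis) for the 17094 genes tested, with the 31 called genes in red. Dsg1a and Dsg1b lie apart near -9, and most genes are grey because their 95% interval lay within 2-fold.

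Most transcripts were bounded close to their HET level. The 95% interval of the log2 fold change excluded a 2-fold change in either direction for 14671 genes (85.8%). The share rose with depth, from 54.4% of 3602 genes with a mean under 50 counts to 90.3% of 5028 genes with 50 to 500 and 96.6% of 8464 genes with 500 or more. The median log2 fold change of all genes was -0.004 and the median SE was 0.14. All 12 cell cycle genes were inside the bound, with a median of -0.03. Mki67, which marks dividing cells, was 214, 172, 189, 247 and 205 CPM in HET 1 to 5 and 312, 202, 222, 201 and 196 CPM in KO 1 to 5 (log2 fold change 0.14, 95% interval -0.13 to 0.42). The basal keratins Krt5 (0.08, -0.14 to 0.30) and Krt14 (-0.05, -0.32 to 0.21) and the suprabasal keratin Krt10 (0.28, -0.00 to 0.56) were bounded as well. Loricrin (Lor), a main envelope protein, was between 3528 and 6294 CPM in HET and between 4108 and 10403 CPM in KO, and its interval ran from -0.30 to 0.79.

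KO and HET columns did not overlap in 385 genes (2.25%), 163 higher and 222 lower in KO, and 257 of these had an interval within 2-fold. Among the 31 called genes 25 had no overlap, 9 higher and 16 lower. The 18 of them with enough counts for a value in each column, Dsg1a and Dsg1b aside, follow by role.

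Dsg3 was the called gene of the desmosome. It was 43.4, 53.6, 37.2, 64.9 and 37.8 CPM in HET 1 to 5 and 143, 157, 96.5, 134 and 82.4 CPM in KO 1 to 5. Every KO column lay above the highest HET column, and KO 5 came nearest. The log2 fold change was 1.37 ± 0.19 (SE, adjusted p = 0.0103), 2.59-fold. Dsg3 was also 1 of 3 called genes, with Dsg1a and Dsg1b, whose interval between HET and WT excluded 0: the WT mean was 24.6 ± 3.27 CPM (SD, n = 5), and HET minus WT was 0.94 (95% interval 0.54 to 1.34). Dsg3 lies on chromosome 18 near the deleted genes. Of the 26 called genes whose chromosome could be read from RefSeq, 4 were on chromosome 18 (Dsg1a, Dsg1b, Dsg3 and Gm94). Chromosome 18 held 415 of the 14728 tested genes whose chromosome was found.

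No other desmosomal gene passed the test. The 6 desmosomal cadherins outside the deletion, Dsg3 included, all had positive values (median 0.51), and Dsg3 alone was called. Dsg4 had means of 1.16, 2.51 and 3.72 CPM in WT, HET and KO, and its KO and HET columns overlapped. The paper proposes that the deletion brings an enhancer close to Dsg4, which may affect its expression. Whether position near the deletion, which HET embryos also carry, plays a part in the cadherin values was not tested. Dsc2 was 27.1 CPM in KO 4 against 6.55 to 8.30 CPM in the other KO columns and 7.23 to 9.44 CPM in HET, and without KO 4 the median of the cadherins was 0.39. Dsc1, the desmocollin of the upper layers, was 973, 1148, 974, 1248 and 1065 CPM in HET 1 to 5 and 1397, 1862, 1281, 1464 and 1477 CPM in KO 1 to 5. These columns did not overlap, yet its adjusted p was 0.181 (log2 fold change 0.47). Dsg2, a desmoglein of simple epithelia and deep skin layers, had 0.56 (adjusted p = 0.183) and overlapped. Of the 8 plaque genes 7 had positive values (median 0.39) and none was called. Desmoplakin (Dsp) was 1367 to 2284 CPM in HET and 1658 to 3405 CPM in KO (0.59, 0.13 to 1.05), plakoglobin (Jup) had 0.47 (0.11 to 0.83) and plakophilin 1 (Pkp1) 0.40 (0.09 to 0.72). The 7 tested classical cadherins and catenins and the 9 hemidesmosome genes, which anchor cells to each other and to the basement membrane, all had intervals within 2-fold (medians 0.27 and 0.21). Leaving out KO 2 lowered the plaque median to 0.27.

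Sprr2b and Sprr1b, of the small proline-rich family, were among the 4 raised genes with the largest folds. Sprr1b, a cross-linked envelope precursor, was 12.7, 36.2, 24, 16.8 and 25.5 CPM in HET 1 to 5 and 174, 232, 117, 265 and 104 CPM in KO 1 to 5. No KO column came near a HET column, and the log2 fold change was 2.95 ± 0.43 (SE, adjusted p = 0.0253), 7.75-fold. Sprr2b was far rarer, 0.163, 0.409, 0.405, 0.520 and 0.239 CPM in HET 1 to 5 and 3.22, 5.68, 0.638, 5.04 and 1.38 CPM in KO 1 to 5. Its columns did not overlap, but KO 3 was close to the highest HET column (3.23 ± 0.65 SE, adjusted p = 0.0797). The Sprr2 genes are near copies of each other, so how the counting split their reads is uncertain. All 9 tested members of the 15-gene Sprr list had positive values (median 2.17, against -0.004 for all genes), 2 were called, and the lowest median under any alternative was 1.61. Summed over the 15 genes, HET 1 to 5 held 41.1, 97.8, 49.4, 65.8 and 44.0 CPM and KO 1 to 5 held 259, 455, 148, 436 and 207 CPM, without overlap.

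Repetin and Krt16 rose with wide spread among KO columns. Rptn, an S100-fused protein of the envelope, was 22.4, 10.6, 16.1, 23 and 12.5 CPM in HET 1 to 5 and 116, 241, 29.5, 170 and 124 CPM in KO 1 to 5. Every KO column exceeded HET, KO 3 by little, and the log2 fold change was 3.01 ± 0.53 (SE, adjusted p = 0.0572), 8.07-fold. Its relatives did not pass: Flg, the gene of filaggrin, had 0.66 (adjusted p = 0.163), Hrnr 0.12 (0.787) and Flg2 -0.01 (0.995). Krt16 was 21.7, 86.7, 22.6, 29.1 and 18.2 CPM in HET 1 to 5 and 440, 334, 54.5, 420 and 176 CPM in KO 1 to 5 (3.0 ± 0.58 SE, adjusted p = 0.0877). Here the groups overlapped, since HET 2 exceeded KO 3. Krt6a, a partner of Krt16 in stressed epidermis, was 0.574 to 2.98 CPM in HET and 7.03, 3.02, 1.11, 53.3 and 2.29 CPM in KO 1 to 5. Its value of 3.35 was not called (adjusted p = 0.167), though it was without KO 3. Whether Krt6a was called with DESeq2, with the 24 libraries kept separate or without KO 5 was not recorded. Krt6b reached 43.9 CPM in HET 2 and 67.6 CPM in KO 1 (adjusted p = 0.492), and Krt17, which hair follicles express in healthy skin, had -0.10 (0.764).

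**Figure D3:**
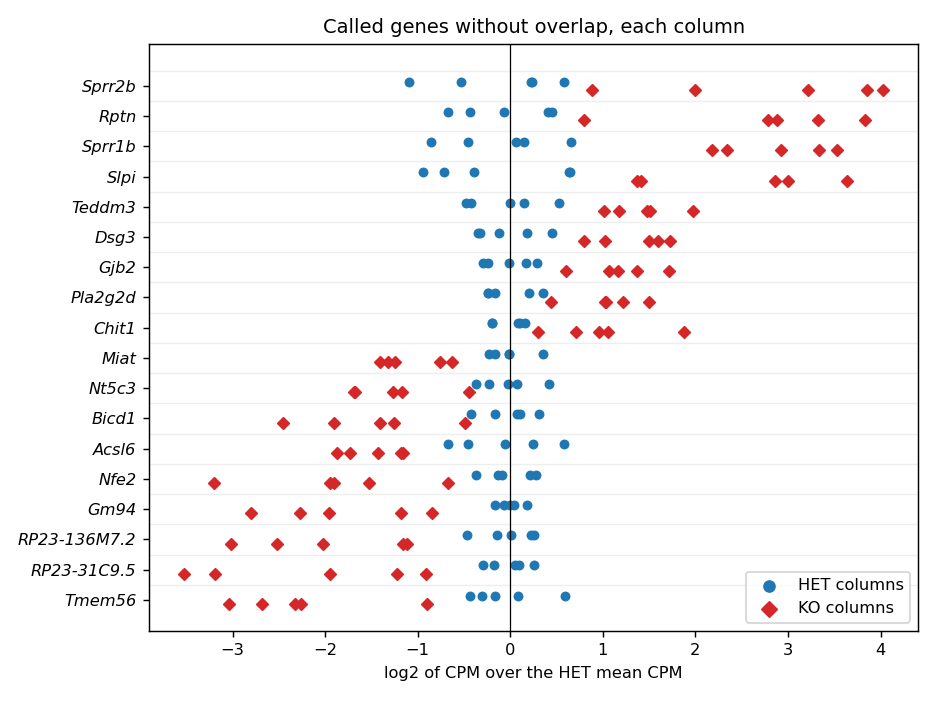
Each KO column (diamonds) and HET column (circles) as the log2 of its CPM over the HET mean CPM, for the 18 called genes other than Dsg1a and Dsg1b with no overlap between genotypes and a mean of 20 or more counts. On this scale the KO columns spanned a wider range than the HET columns in 15 of the 18 genes, and in Rptn and Sprr2b 1 KO column lies close to HET.

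Gjb2, the gene of connexin 26, was the called member of the gap junction list. It was 104, 138, 100, 151 and 121 CPM in HET 1 to 5 and 276, 402, 186, 317 and 257 CPM in KO 1 to 5. The groups did not overlap, and the log2 fold change was 1.23 ± 0.18 (SE, adjusted p = 0.0171), 2.34-fold. All 6 epidermal connexins had positive values (median 0.41), from 0.05 for Gjb5 to 0.49 for Gjb6, which encodes connexin 30, apart from Gjb2, and 5 had an interval within 2-fold. Gja1, the abundant connexin 43, was 649.8 to 796 CPM in HET and 730 to 860 CPM in KO (0.11, -0.08 to 0.31). Tight junction genes had a median of 0.40 with none of 11 called, and Cldn3 and Cldn7 were high in KO 4 alone (7.14 and 5.71 CPM, against 0.959 and 0.979 CPM or less in the other KO columns). Without KO 4 the tight junction median was 0.23.

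Slpi, Pla2g2d and Chit1 were raised as well. Slpi, a secreted inhibitor of neutrophil proteases, was 0.163, 0.112, 0.331, 0.130 and 0.335 CPM in HET 1 to 5 and 1.71, 1.55, 0.553, 2.67 and 0.571 CPM in KO 1 to 5 (2.68 ± 0.53 SE, adjusted p = 0.0733). Pla2g2d, a secreted phospholipase A2, was 1.72, 2.60, 1.73, 2.34 and 1.82 CPM in HET 1 to 5 and 4.75, 4.17, 2.77, 5.76 and 4.19 CPM in KO 1 to 5 (1.08 ± 0.20 SE, adjusted p = 0.0523). Neither overlapped, and both were rare transcripts. Slpi had 12 to 57 counts in KO columns, 2 to 9 in HET columns and 0 to 9 in WT columns. It passed the count filter through its KO columns alone, and with no filter it was called as well. Chit1, a chitinase, was 15.2, 18.8, 19.5, 18.48 and 15.1 CPM in HET 1 to 5 and 28.5, 63.8, 21.5, 33.8 and 36.2 CPM in KO 1 to 5 (1.08 ± 0.23 SE, adjusted p = 0.0933). KO 3 lay just above the highest HET column.

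Teddm3 was 1.76, 2.72, 3.53, 1.82 and 2.44 CPM in HET 1 to 5 and 6.82, 7.01, 4.94, 9.66 and 5.52 CPM in KO 1 to 5, without overlap (1.46 ± 0.22 SE, adjusted p = 0.0202). Fosl1, a subunit of the AP-1 transcription factor, was 0.976 to 1.44 CPM in HET and 1.47, 3.06, 1.4, 4.32 and 2.95 CPM in KO 1 to 5, and KO 3 fell below the highest HET column (1.22 ± 0.27 SE, adjusted p = 0.0993). Among the other 6 AP-1 genes Fos had 0.58 (adjusted p = 0.154), and Jun, Junb and Jund had -0.06, 0.00 and -0.05 with intervals within 2-fold. Cyp3a13, a cytochrome P450, rose by 1.35, Plet1, known from the upper hair follicle, by 1.24 and Skint11, of a family known for shaping epidermal T cells, by 1.90. In each of these 3 genes KO 3 overlapped with HET and the other 4 KO columns lay above it. KO 3 was the lowest KO column in 12 of the 14 raised genes, while KO 2 was the highest in 7 and KO 4 in 6. Of the 14 raised genes, leaving out both KO 4 and HET 3 kept Dsg3 and Teddm3 called.

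RefSeq (GRCm38.p6) held upstream sequence for 18 of the 31 called genes. The 250 bases before the annotated start were searched on both strands for TGANTCA, since Fosl1 was among the raised genes. This pattern takes any base in the middle, so it is looser than the letters AP-1 is known to bind, TGAGTCA or TGACTCA. Matches to those letters alone were not counted, so the shares below are not shares of AP-1 sites. Matches were present upstream of 7 of 11 raised genes with an entry (63.6%: Chit1, Cyp3a13, Plet1, Rptn, Skint11, Sprr1b and Sprr2b), 1 of 7 lowered genes (Acsl6, 14.3%) and 687 of the 11248 tested genes with an entry (6.11%). Of the Sprr list 6 of the 8 genes with an entry had them, and of the Lce1 list, which lies on chromosome 3 with Sprr and Rptn and had negative values, 0 of 13. Sprr genes are copies of one another and do not count as independent. TATAAA was found upstream of 5 of the 11 raised genes (45.5%), none of the 7 lowered ones and 8.79% of all tested genes with an entry, and AACCGGTT, which grainyhead factors are known to bind, upstream of none of the 18 called genes with an entry and 0.231% of all tested genes with one. A match is a description of letters and not of binding. Sequences of 3 raised genes and of Lce1m, the most abundant Lce1 gene, are shown so that the matches can be seen, with TGANTCA in capitals.
Sprr1b, chr3:92438780-92439029, minus strand: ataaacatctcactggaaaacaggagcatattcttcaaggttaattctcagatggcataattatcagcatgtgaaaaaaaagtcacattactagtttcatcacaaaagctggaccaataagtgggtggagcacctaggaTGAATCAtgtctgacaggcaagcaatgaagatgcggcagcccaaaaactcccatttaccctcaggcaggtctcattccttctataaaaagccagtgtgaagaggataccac
Sprr2b, chr3:92316455-92316704, plus strand: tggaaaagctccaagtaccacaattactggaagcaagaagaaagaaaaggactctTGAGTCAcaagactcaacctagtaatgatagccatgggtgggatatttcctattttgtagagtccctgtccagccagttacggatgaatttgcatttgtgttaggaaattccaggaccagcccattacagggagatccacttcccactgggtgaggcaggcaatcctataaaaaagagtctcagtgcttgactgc
Rptn, chr3:93393449-93393698, plus strand: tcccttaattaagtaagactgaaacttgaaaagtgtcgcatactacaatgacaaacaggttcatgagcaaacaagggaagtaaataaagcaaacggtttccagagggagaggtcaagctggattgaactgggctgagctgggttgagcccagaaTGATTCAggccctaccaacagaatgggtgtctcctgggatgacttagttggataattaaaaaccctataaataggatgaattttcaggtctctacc
Lce1m, chr3:93019062-93019311, minus strand: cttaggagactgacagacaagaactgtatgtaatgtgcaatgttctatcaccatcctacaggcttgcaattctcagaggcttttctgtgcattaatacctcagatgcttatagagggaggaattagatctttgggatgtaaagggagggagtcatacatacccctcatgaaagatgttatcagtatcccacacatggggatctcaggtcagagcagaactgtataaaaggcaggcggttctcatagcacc

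In Sprr1b the match TGAATCA began 111 bases before the start, in Sprr2b TGAGTCA began 195 bases before it, and in Rptn TGATTCA began 96 bases before it. Of these matches the one in Sprr2b alone has the letters AP-1 is known to bind. Lce1m had no match in this window.

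Among the lists the Lce1 genes, which encode late envelope proteins, had the most negative median. All 14 were tested, all 14 were negative (median -2.03, from -2.30 to -1.09), and none was called, with adjusted p from 0.142 to 0.508. Alternatives differed here. Without KO 2, 10 of the 14 were called. With the mean log2 CPM of the skeletal muscle markers as a covariate, 7 were. At least 12 were called in limma-voom on the separate libraries, where the record was cut short, and 1 (Lce1m) in limma-voom on the summed columns. Calls of Lce1 genes were not recorded for DESeq2, for the 24 libraries kept separate or without KO 5. The remaining alternatives called none. Summed over the group, HET 1 to 5 held 3386, 4515, 2556, 3769 and 2119 CPM and KO 1 to 5 held 196, 2355, 120, 803 and 519 CPM. KO 2 lay inside the HET range and the other 4 KO columns below it, and the KO mean was 24.4% of the HET mean. Lce1m was 1455, 1933, 1319, 1612 and 1166 CPM in HET 1 to 5 and 96.8, 974.6, 87.2, 321 and 305 CPM in KO 1 to 5, the one Lce1 gene without overlap (-2.07, adjusted p = 0.142). Without KO 2 the Lce1 median was -3.11. KO 2 also had the highest keratinocyte marker sum of the KO columns, 92505 CPM against 72488 CPM or less. Genes of the Lce1 group are similar in sequence, and reads shared among them may have been lost or split. The related Lce3 genes, known to rise on barrier injury, had 2 of 6 members tested, both positive and neither called: Lce3c was 31.4 CPM in KO 2 and 0.638 CPM in KO 3. Lce3d was not tested in the main fit, and had 13, 68, 0, 38 and 10 counts in KO 1 to 5 and 1 in HET 2 alone. No HET or WT column held more than 1 count of Lce3d, so it could pass the count filter only through KO columns. Where it passed, without KO 3, HET 4, WT 1 or WT 5, it was called, which therefore adds no support. With no filter Lce3d was not called. Its calls without KO 5 and in the fits on separate libraries were not recorded.

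**Figure D4:**
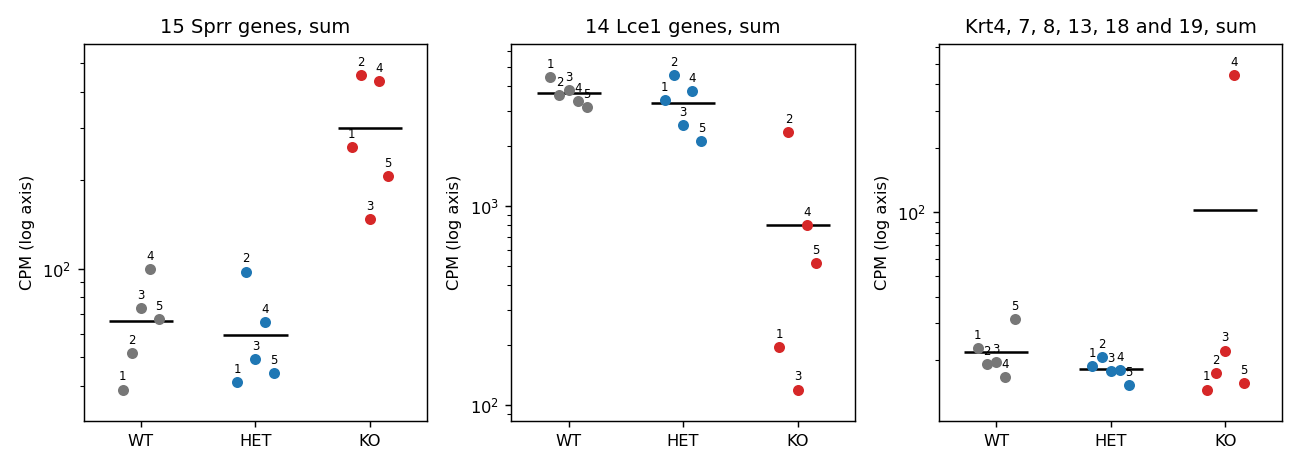
Summed CPM (log axis) of the Sprr genes, the Lce1 genes and the simple and periderm keratins in each WT, HET and KO column (points, numbered by column) with the group mean (line). KO Sprr sums lay above HET, KO 2 alone kept an Lce1 sum inside the HET range, and KO 4 alone raised the keratin sum.

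Other epidermal groups had small positive medians without called members. The other envelope genes had 10 of 12 positive (median 0.41), among them Cnfn with 0.68 (adjusted p = 0.152) and involucrin (Ivl) with 0.42 (0.178). Lipid barrier genes had a median of 0.21, with 13 of 16 inside the 2-fold bound. The sterol and fatty acid synthesis genes had 17 of 17 positive but small values (median 0.23, highest 0.47), with 16 inside the bound and none called. Of 15 differentiation transcription factors 14 were positive (median 0.37). Grhl3, a grainyhead factor of barrier formation, was the one that passed the adjusted p: it was 49.4, 67.0, 51.2, 68.2 and 62.5 CPM in HET 1 to 5 and 88.3, 119, 92.5, 94.1 and 68.3 CPM in KO 1 to 5. KO 5 lay just above the highest HET column and the others well above it (0.63 ± 0.13 SE, adjusted p = 0.0733, under the fold limit).

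Epidermal proteases and their inhibitors were 8 of 13 positive (median 0.22) with none called, and Klk6, a kallikrein that stressed epidermis expresses, had the highest value, 2.13 (adjusted p = 0.150), and was called without KO 3 or KO 5 and in limma-voom on the separate libraries. Clade B serpins had 5 of 7 negative (median -0.13). Il18, a cytokine that keratinocytes store, was 86.2, 95.1, 100.4, 104 and 92.5 CPM in HET 1 to 5 and 20.6, 73.9, 15.1, 48.3 and 48.3 CPM in KO 1 to 5. These columns did not overlap, but the value of -1.21 had an adjusted p of 0.147, and KO 2 was again the column nearest to HET. Il18 was called without KO 2, KO 3 or KO 5, with the skeletal muscle covariate and in both limma-voom fits. Il1a, another stored cytokine, had -1.70 (0.201), with a call without KO 2 and in limma-voom on the separate libraries, and Il1b 1.59 (0.202). Among ERBB ligands Ereg had 1.36 (0.169, called with DESeq2 and without KO 3 or KO 5) and Hbegf 0.77 (0.124). Btc had -0.69 (0.400, called in limma-voom on the separate libraries). The record of called genes was cut short in alphabetical order in some alternatives. For DESeq2 it did not reach Hbegf, Il18, Il1a, Il1b or Klk6. For the 24 libraries kept separate it reached neither these genes nor Ereg, so calls there are not known.

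Of the antimicrobial list Slpi alone was called, and it had passed the count filter through its KO columns alone. S100a8 and S100a9, which form calprotectin, had 1.00 and 1.12 (adjusted p = 0.289 and 0.269), and the antimicrobial list, Slpi included, had a median of 1.06 over 6 tested genes, or 0.51 without KO 4. The list named neutrophil chemokines had 6 genes, among them Ccl20, which is not known as a neutrophil chemokine. Of these 6 genes only Ccl20 had enough counts to be tested (3.0, adjusted p = 0.166), and it was called with DESeq2 and without KO 3. Their sum was 0.0368 to 0.670 CPM in HET and 1.47, 1.59, 0.170, 18.3 and 1.76 CPM in KO 1 to 5, with KO 4 far above the others. Il17a and Il22 had no count in any of the 10 columns. The 11 interferon response genes had a median of -0.03 and the 7 NRF2 targets 0.04, with none called. The simple and periderm keratins had a median of 2.44, the largest among lists with more than 1 tested gene, but it rested on KO 4: Krt8 was 106 CPM there and 2.61 to 4.38 CPM in the other KO columns, and without KO 4 the median was -0.04.

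**Figure D5:**
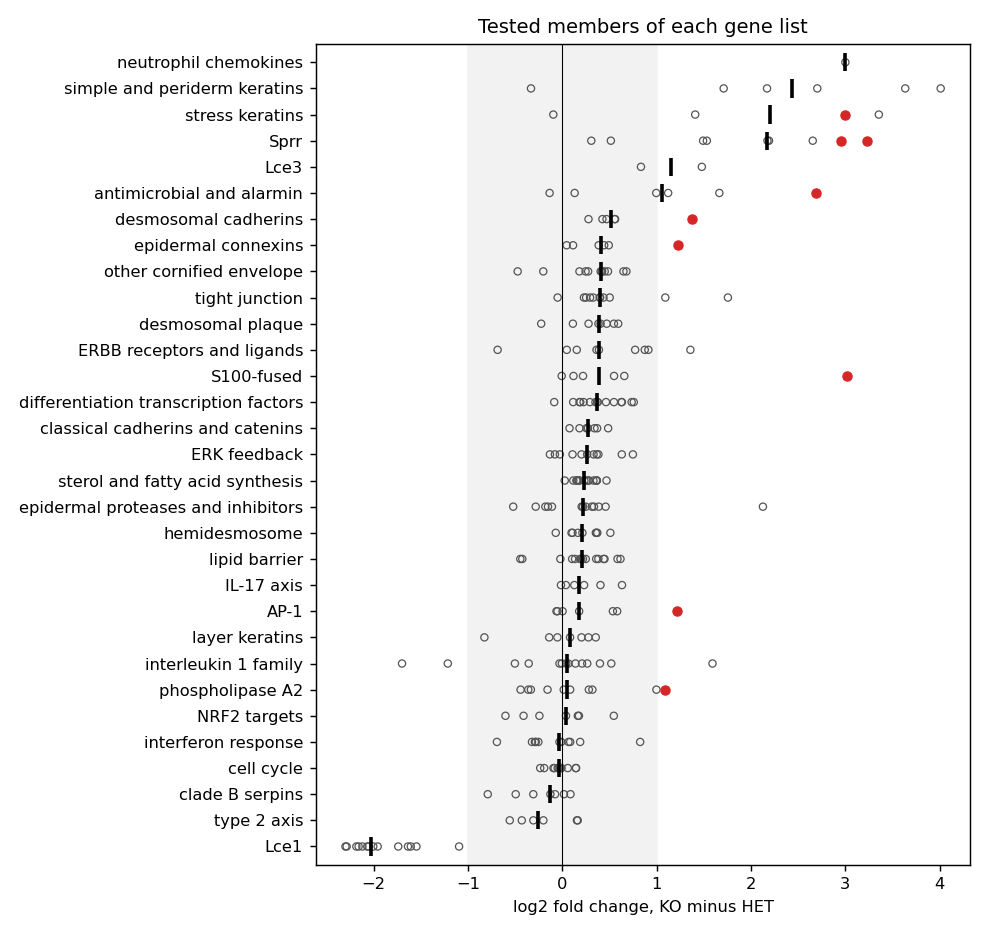
Log2 fold change of KO minus HET for each tested member of the 31 pathway lists (circles, filled red where called) with the median of each list (bar), and the range within 2-fold shaded. Sprr lies to the right and Lce1 to the left, and most lists have medians between 0 and 0.5.

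None of the lowered genes belonged to one of the pathway lists. Gm94 was the most abundant of them, 615, 599, 536, 681 and 570 CPM in HET 1 to 5 and 86.2, 334, 124, 154 and 265 CPM in KO 1 to 5, without overlap (-1.64 ± 0.28 SE, adjusted p = 0.0474). Nt5c3, a pyrimidine nucleotidase, was 137, 146, 119, 185 and 107 CPM in HET 1 to 5 and 43.0, 102, 43.5, 61.7 and 57.6 CPM in KO 1 to 5 (-1.17 ± 0.21 SE, adjusted p = 0.0523). KO 2 lay close under the lowest HET column. Tmem56, a membrane protein gene, was 17.2, 20.3, 14.2, 28.9 and 15.6 CPM in HET 1 to 5 and 3.85, 10.3, 2.34, 4.01 and 3.0 CPM in KO 1 to 5 (-2.02 ± 0.33 SE, adjusted p = 0.0419). Plcxd2 overlapped, because KO 2 with 14.5 CPM exceeded HET 3 with 13.4 CPM and HET 5 with 14 CPM (-1.51 ± 0.30 SE, adjusted p = 0.0767).

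Nfe2, a transcription factor known from the erythroid and megakaryocyte lineages, was 6.87, 10.2, 8.32, 10.7 and 8.09 CPM in HET 1 to 5 and 0.962, 5.53, 3.06, 2.36 and 2.29 CPM in KO 1 to 5, without overlap (-1.63 ± 0.30 SE, adjusted p = 0.0545). The 8 erythroid markers were all positive (median 0.56, none called), and summed to 1854 to 6074 CPM in HET and 3107 to 9049 CPM in KO. With the mean log2 CPM of the erythroid markers as a covariate Nfe2 had -1.62 ± 0.33 (SE, edgeR adjusted p = 0.0950). No fit had the megakaryocyte markers as a covariate, and the cause of the lower Nfe2 was not tested. The megakaryocyte markers had a median of 0.32, and Ppbp was 248 CPM in KO 4 and 1.25 CPM or less in every other KO and HET column. Acsl6, which activates long-chain fatty acids, was 7.91, 6.25, 3.31, 5.07 and 3.83 CPM in HET 1 to 5 and 1.59, 2.36, 1.96, 1.44 and 2.33 CPM in KO 1 to 5 (-1.45 ± 0.28 SE, adjusted p = 0.0634). Its groups did not overlap.

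Bicd1, an adaptor of the dynein motor, was 3.84, 3.20, 4.53, 4.62 and 5.31 CPM in HET 1 to 5 and 0.781, 3.06, 1.15, 1.80 and 1.62 CPM in KO 1 to 5 (-1.35 ± 0.28 SE, adjusted p = 0.0797). Miat, a long noncoding RNA, was 9.50, 9.97, 11, 11.1 and 14.3 CPM in HET 1 to 5 and 4.48, 6.60, 7.19, 4.21 and 4.71 CPM in KO 1 to 5 (-1.03 ± 0.18 SE, adjusted p = 0.0474). Neither overlapped. RP23-136M7.2 and RP23-31C9.5, genes named after genomic clones, were 4.23, 5.28, 5.89, 6.83 and 6.99 CPM and 2.54, 2.75, 3.24, 3.32 and 3.73 CPM in HET 1 to 5. In KO 1 to 5 RP23-136M7.2 was 0.721, 2.69, 1.02, 1.44 and 2.62 CPM (-1.79, adjusted p = 0.0474) and RP23-31C9.5 was 0.270, 1.66, 0.340, 1.34 and 0.809 CPM (-1.83, adjusted p = 0.0634). KO 2 held the highest KO value in 11 of the 17 lowered genes.

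The remaining lowered genes had a mean under 20 counts and no overlap: Sgol1ut (-2.68), RP23-78F6.3 (-1.97), RP23-278C10.3 (-1.39), Ctla4 (-1.42), an inhibitory receptor of T cells, and Mcpt8 (-1.39), a protease of basophils. Ctla4 was 0.718 to 1.12 CPM in HET and 0.180 to 0.627 CPM in KO, and the tested T cell and Langerhans cell markers had a median of 0.28. Mcpt8 was 0.586 to 0.911 CPM in HET and 0.221 to 0.360 CPM in KO, and the 5 mast cell markers were all negative (median -0.31) with none called. In bulk skin fewer cells of a type and less RNA in each cell cannot be told apart.

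Of the genes that passed the adjusted p but missed the fold limit, 11 were higher and 15 lower in KO. Smallest in adjusted p among the higher ones were Fam81a (0.51), RP23-83N17.1 (0.54), Grhl3 (0.63), Homer2 (0.77), a scaffold protein of synapses, and Tnfrsf1a (0.39), a receptor of tumour necrosis factor. Among the lower ones they were RP24-64D24.4 (-0.77), Sybu (-0.74), Gpsm1 (-0.86), Paqr7 (-0.91) and RP23-153M14.4 (-0.74). Each of these had an adjusted p between 0.0419 and 0.0877.

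Values of HET against WT are given beside those of KO against HET, in a fit where all share the same columns. Apart from Dsg3, HET minus WT ranged from -0.34 to 0.53 in the other 13 raised genes (median 0.04) and KO minus WT from 1.07 to 3.52. In the 15 lowered genes other than Dsg1a and Dsg1b, HET minus WT ranged from -0.20 to 0.64 (median 0.09) and KO minus WT from -2.15 to -0.68. The interval of HET minus WT lay within 2-fold for 21 of the 31 called genes, and 27 of the 31 were also called between KO and WT. Both contrasts share columns with the one that chose these genes, and the shares over all genes tested were not recorded. Neither count therefore adds support. Sprr1b had WT, HET and KO means of 22.4, 23 and 179 CPM, Gjb2 of 124, 123 and 288 CPM, Gm94 of 670, 600 and 193 CPM and Nt5c3 of 139, 139 and 61.6 CPM. The Lce1 sum was 3144 to 4423 CPM in WT, 2119 to 4515 CPM in HET and 120 to 2355 CPM in KO, and the Sprr sum 38.8 to 99.5, 41.1 to 97.8 and 148 to 455 CPM. For Sprr2b, Rptn, Krt16 and Slpi the interval of HET minus WT reached past 2-fold, so their HET level was not bounded as closely.

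Markers of the other cell types were not called, and the types differed in how closely they were bounded. None of the 80 tested markers of 14 cell types was called, and 47 had an interval within 2-fold. All 6 fibroblast markers (median -0.21) and all 7 skeletal muscle markers (-0.05) were inside the bound, as were 7 of 8 macrophage markers (0.09). The 7 tested neutrophil markers were all positive (median 0.81, none called), with sums of 4.54 to 19.6 CPM in HET and 6.24 to 29.2 CPM in KO, and Cxcr2 was called without KO 5 and with the 24 libraries kept separate. Adipocyte markers had no member inside the bound (median 0.40, or -0.29 without KO 4), and neither did the 8 erythroid or the 7 neutrophil markers. Cd207, which defines Langerhans cells, had 0.0744 CPM or less in each column.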

How the data were processed

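Whole dorsal skin of E18.5 embryos was profiled by poly(A) RNA-seq with a directional kit. The authors deposited raw read counts per gene symbol for 24 libraries. The submitters' processing notes name STAR, HTSeq and the human build hg19; versions, and a mouse build, are not given in the sources used here. Of 54087 symbols, 18384 had no count. Libraries sharing a title number and genotype were summed to 15 columns with 15279289 to 33681853 counts. Genes passing filterByExpr (17094, holding 99.9% of counts) were fitted with edgeR 4.0.16 (R 4.3.3; TMM, robust quasi-likelihood, genotype only) over all 3 genotypes, so that they shared 1 estimate of spread, and the scripts were tested on simulated data. Thresholds were an adjusted p of 0.1 and a log2 fold change of 1. Log2 intervals are 95%. DESeq2 1.42.0 and limma 3.58.1 were alternatives, as were fits with 1 added covariate (the mean log2 CPM of erythroid, skeletal muscle or fibroblast markers, Y-linked genes, a transcript length slope, or presence in both title series).

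Every called gene was named. Those with a mean of 20 or more counts and no overlap, at most 12 in each direction, were given by column. List members could be named, as were the 5 genes in each direction with the smallest adjusted p under the fold limit. The comparison, the lists and the motifs were chosen with earlier results of these data known. Lists were described by counts and medians, without a set test. Promoters and chromosomes came from RefSeq GRCm38.p6, by symbol; chromosomes were found for 14728 tested genes.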

Additional observations from a re-analysis of the deposited data

Results flagged for a closer look

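In 14 of 154 groups of 5 columns examined, 1 column stood far from the others: its gap to the next one exceeded Dixon's 95% critical value of 0.71 as a share of the range. Chance does this in about 1 in 20 groups. KO 4 accounted for 5 of the 14, KO 2 for 5, HET 3 for 2, and HET 2 and HET 4 for 1 each. No explanation was tested.

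KO 4 was highest for the summed simple and periderm keratins (441 CPM, next 22.3), the antimicrobial list (127 CPM, next 47.4), the chemokine list with Ccl20 (18.3 CPM, next 1.76), the megakaryocyte markers (289 CPM, next 57.1) and the adipocyte markers (5936 CPM, next 1837). KO 2 was highest for the layer keratins (93684 CPM, next 73297), the keratinocyte markers (92505 CPM, next 72488), the AP-1 list (719.8 CPM, next 557), Plcxd2 (14.5 CPM, next 6.32) and Tmem56 (10.3 CPM, next 4.01).

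HET 3 was highest for the neutrophil markers (19.6 CPM, next 8.43) and the adipocyte markers (4384 CPM, next 1459). HET 2 was highest for Krt16 (86.7 CPM, next 29.1), and HET 4 was lowest for RP23-278C10.3 (0.325 CPM, next 0.662).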

How the results depend on the processing

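The number of called genes (31) depended on the spread estimate and on single columns. It was 3 with KO and HET columns only, 3 in title series 1, 29 in series 2, 179 with 24 libraries as separate samples, 86 with limma-voom on those with series and number as terms, 126 with DESeq2, 20 at a mean of 50 or more counts, 10 at an adjusted p of 0.05, 57 without the fold limit, and 90, 13 and 10 with skeletal muscle, fibroblast and transcript length covariates. With KO 4 and HET 3 left out, chosen after seeing the data, it was 4. Leaving out 1 column gave 10 to 113: 10, 77, 99, 11 and 113 without KO 1 to 5, 10, 11, 57 and 14 without HET 1, 3, 4 and 5, and 15, 16 and 58 without WT 2, 3 and 4. The causes were not tested. A Y-linked covariate gave 21 genes, the doubtful WT column kept as 2 columns gave 38, and scaling by total counts gave 44 (16 higher, 28 lower), with the median of all genes at -0.0458. No called gene changed direction. The number of genes whose KO vs HET interval excludes a 2-fold change was 12476 to 16571, and the log2 difference for Dsg1 sum KO vs HET was -9.56 to -8.0. No paired analysis was possible because no title number is shared between genotypes. The split of Sprr and Lce reads, and genes under 50 counts, of which 54.4% were bounded, limit what depth can show.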
